A study of Mus musculus with 116 samples.

Results

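Radial glia identity genes are 10 genes by which the stem cells of the embryonic cortex are recognised: Pax6, Sox2, Sox9, Hes1, Hes5, Nes, Vim, Fabp7, Slc1a3 and Prom1. They were taken by name from the 53379 genes counted, and their levels were read in the 55 of 68 green libraries that held at least 1000000 uniquely aligned reads making up at least 60% of all reads. The series holds 116 libraries in all, the others being of red and yellow cells. Bulk Smart-Seq2, which copies polyadenylated RNA of few cells into full-length cDNA, was run on cells sorted from neocortex, each sample pooled from several cortices. These pools are the replicates, and p-values measure the spread between them.

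All animals carried MADM cassettes on chromosome 7 and Emx1-Cre, which is active in the dorsal telencephalic progenitors and their progeny. In MADM (mosaic analysis with double markers), recombination between the 2 chromosomes 7 makes green, red and yellow cells of known genotype, and green cells carry 2 paternal copies of chromosome 7 in every group. Eed is a core subunit of Polycomb repressive complex 2, which methylates histone H3 at lysine 27 and keeps developmental genes silent. Green cells were Eed+/+ in control-MADM (MADM7-GT/TG;Emx1-cre). In Eed-MADM, green cells were Eed-/- and sparse in a tissue that was mostly heterozygous. In cKO-Eed-MADM, green cells were Eed-/- and so was the rest of the Emx1-Cre lineage. Control-MADM gave 5 libraries at E12.5 and 2 at E13.5. It gave 3 libraries at E16.5 and 5 at P0. Eed-MADM gave 8, 2, 5 and 9 libraries at these ages, and cKO-Eed-MADM gave 4 at each. The sample labels name the strain CD1 and the ages as E12, E13, E16 and P0.

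Radial glia line the ventricle and span the wall of the cortex. They divide to renew themselves, make neurons directly or through intermediate progenitors, and turn to making astrocytes around birth. Pax6, Sox2 and Sox9 are transcription factors of the progenitor state, Hes1 and Hes5 are repressors switched on by Notch signalling that hold back neurogenesis, Nes and Vim encode the intermediate filaments nestin and vimentin, Fabp7 encodes the brain lipid-binding protein, Slc1a3 the glutamate transporter GLAST, and Prom1 the membrane protein prominin. Sox9, Fabp7, Slc1a3, Hes1, Hes5 and Vim are also made by astrocytes and their precursors.

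Libraries held 865832 to 2359317 reads on genes at E12.5 and 2784557 to 7249098 at the later ages, with 15720 to 22465 genes detected. Eed read between 26.8 and 160 CPM (counts per 1000000 reads on genes, TMM-scaled over all green libraries) in control-MADM and between 8.99 and 49.2 CPM in cKO-Eed-MADM, and at each age every cKO-Eed-MADM library was below every control-MADM library. Eed-MADM libraries lay below all control-MADM libraries from E13.5 on, but at E12.5 they read 31.7 to 87.7 CPM and overlapped control-MADM, whose lowest library read 81.5 CPM. These counts cover the whole gene, so that transcripts which lack the deleted part still count. The study also left out libraries for low correlation with replicates or many reads in the deleted part of Eed. Here only the read limits were applied, so libraries that the study left out may be among those used. The E12.5 cells went into lysis buffer, the older ones into an extraction buffer followed by Trizol. Age and collection method therefore cannot be told apart for E12.5, which entered no test against another age. The summed choroid plexus and ependyma markers (Ttr and 4 other genes) stood apart in cKO-Eed-MADM replicate 3 at E12.5, with 36120 CPM against at most 64.3 in the other libraries of that age, and in Eed-MADM replicate 4 at E16.5, with 4762 CPM against at most 130 CPM. Endothelial markers summed to 1042 CPM in Eed-MADM replicate 8 at E12.5, against at most 327 CPM in the others. Meningeal and mural markers were high in some E12.5 libraries of every paradigm. They summed to 34.1 to 1366 CPM in control-MADM, 35.4 to 1807 in Eed-MADM and 36.7 to 2629 in cKO-Eed-MADM. At E13.5 the highest sum was 63.3 CPM. Every member had reads in every library, between 16 and 21781.

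The 10 genes lie on 8 chromosomes (GRCm38, the assembly of mm10; positions from GENCODE M21). The transcription factor genes are Pax6 at chr2:105668900-105697364, Sox2 at chr3:34650405-34652461 and Sox9 at chr11:112782224-112787760. Hes1 is at chr16:30064384-30067796 and Hes5 at chr4:154960923-154962371, Nes is at chr3:87971078-87980451 and Vim at chr2:13573927-13582826. Fabp7 is at chr10:57784881-57788450, Slc1a3 at chr15:8634124-8710764 and Prom1 at chr5:43993620-44102032. Only Slc1a3 and Prom1 are on the minus strand. An antisense gene, Gm20421, covers 31.8% of the exon bases of Hes5, and reads there are assigned to neither gene when strand is ignored. The unstranded counts of Hes5 lacked 40.5% of the reads found on the 2 strands, those of Prom1, which overlaps Gm16401, lacked 4.0%, and those of the other members at most 0.05%.

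PRC2 is found in mammals mostly at promoters rich in CpG, so the start regions of the members were compared for CpG. RefSeq windows (GRCm38.p6) from 250 bases before to 50 bases after a start were at hand for 8 of the 10 members, all but Sox9 and Hes1. Over 32851 such windows of all genes the median was 7 CpG. The Hes5 window held 41, more than 96.5% of all windows, and the Sox2 window held 27. The windows of Nes and Pax6 held 18 each (16 at a second Pax6 start), that of Vim 11, those of Prom1 10 and 4, that of Fabp7 6 and that of Slc1a3 3. Sox2 and Hes5 stand at the CpG-rich end and Slc1a3 at the poor end, and the 250 bases before their RefSeq starts are shown for that reason, with each CpG in capitals. For Sox2 and Slc1a3 the RefSeq start lies upstream of the GENCODE start given above. They are chr3:34649745-34649994 (plus strand, within the span of the noncoding Sox2ot), chr4:154960673-154960922 (plus strand, overlapped in part by an exon of antisense Gm20421) and chr15:8710808-8711057 (minus strand).
Sox2: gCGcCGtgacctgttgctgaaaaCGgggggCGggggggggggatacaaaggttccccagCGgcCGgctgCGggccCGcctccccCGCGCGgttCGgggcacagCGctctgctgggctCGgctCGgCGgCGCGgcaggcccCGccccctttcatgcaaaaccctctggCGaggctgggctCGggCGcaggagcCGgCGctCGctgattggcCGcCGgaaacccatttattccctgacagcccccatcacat
Hes5: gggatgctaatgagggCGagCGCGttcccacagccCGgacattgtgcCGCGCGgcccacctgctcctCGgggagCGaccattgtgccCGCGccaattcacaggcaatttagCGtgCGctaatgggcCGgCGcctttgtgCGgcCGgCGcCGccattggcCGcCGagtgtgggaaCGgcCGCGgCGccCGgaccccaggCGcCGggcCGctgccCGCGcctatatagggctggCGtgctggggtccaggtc
Slc1a3: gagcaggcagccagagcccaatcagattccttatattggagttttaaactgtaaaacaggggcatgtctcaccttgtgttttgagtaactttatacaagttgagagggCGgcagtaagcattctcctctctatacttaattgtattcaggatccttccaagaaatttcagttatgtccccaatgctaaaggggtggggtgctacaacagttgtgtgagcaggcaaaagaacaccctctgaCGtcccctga
The letters TGGGAA, the core of the site bound by RBPJ, the DNA-binding partner of Notch, were searched on both strands. They begin 226 and 82 bases before the Hes5 start, on opposite strands, and 25.6% of all windows hold at least 1 match. Fabp7 and 1 of the 2 Prom1 windows held 1 match each. A match of letters is no evidence of binding, and no mark or factor was measured here.

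Within one group the members differed widely in level. Per kilobase of exon, Vim (174 ± 29.0 CPM per kb, SD, n = 2) and Fabp7 (160 ± 42.8) were the most abundant members in control-MADM at E13.5, their ranges overlapping. At P0, Fabp7 led with 1849 ± 1070 CPM per kb (SD, n = 5), 75.6% of the sum over the 10 members, followed by Hes5 at 160 ± 69.0 and Sox9 at 141 ± 32.3, which did not differ beyond their spread. The value of Hes5 is too low by the reads lost to its antisense gene, since its whole exon length was used. Prom1 was the lowest member at P0 (5.20 ± 1.64 CPM per kb), with Pax6 next (11.1 ± 5.33). Slc1a3 was the lowest at E12.5 (4.37 ± 2.01) and at E13.5 (5.42 ± 0.28). Over the 9 group means from E13.5 on, Slc1a3 ran from 46.2 to 1553 CPM and Hes1 from 13.1 to 201 CPM, while Pax6 ran from 75.3 to 209 CPM and Prom1 from 25.5 to 70.4 CPM. Hes5 and Hes1 also varied most within groups, with a median coefficient of variation of 45.2% and 44.3%, against 21.6% for Prom1 and 22.6% for Pax6.

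The make-up of the 10-gene sum shifted with age. Fabp7 took 25.4% of it per kilobase in control-MADM at E13.5, then 56.1% at E16.5 and 75.6% at P0, and Vim 27.6%, 18.8% and 2.47%. In cKO-Eed-MADM at P0, Fabp7 took 58.8%, Slc1a3 8.40% against 3.57% in control-MADM, and Vim 7.88%. Over the 12 group means of log2 CPM, 3 of them of E12.5 with its other way of collection, Pax6 ran most closely with Nes (Pearson's r = 0.963), Prom1 (0.917) and Hes1 (0.902), Sox9 with Hes5 (0.940) and Sox2 (0.915), and Fabp7 with Slc1a3 (0.920), while Slc1a3 and Prom1 ran apart (-0.729). Among 10443 other genes with a mean of at least 10 CPM, those whose course was most like the mean course of the members were Rcn1 (r = 0.973), Mt1 (0.964), Nek7 (0.954), Ppfibp1 (0.954) and Itgav (0.951). These are descriptions over 12 points.

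**Figure D1:**
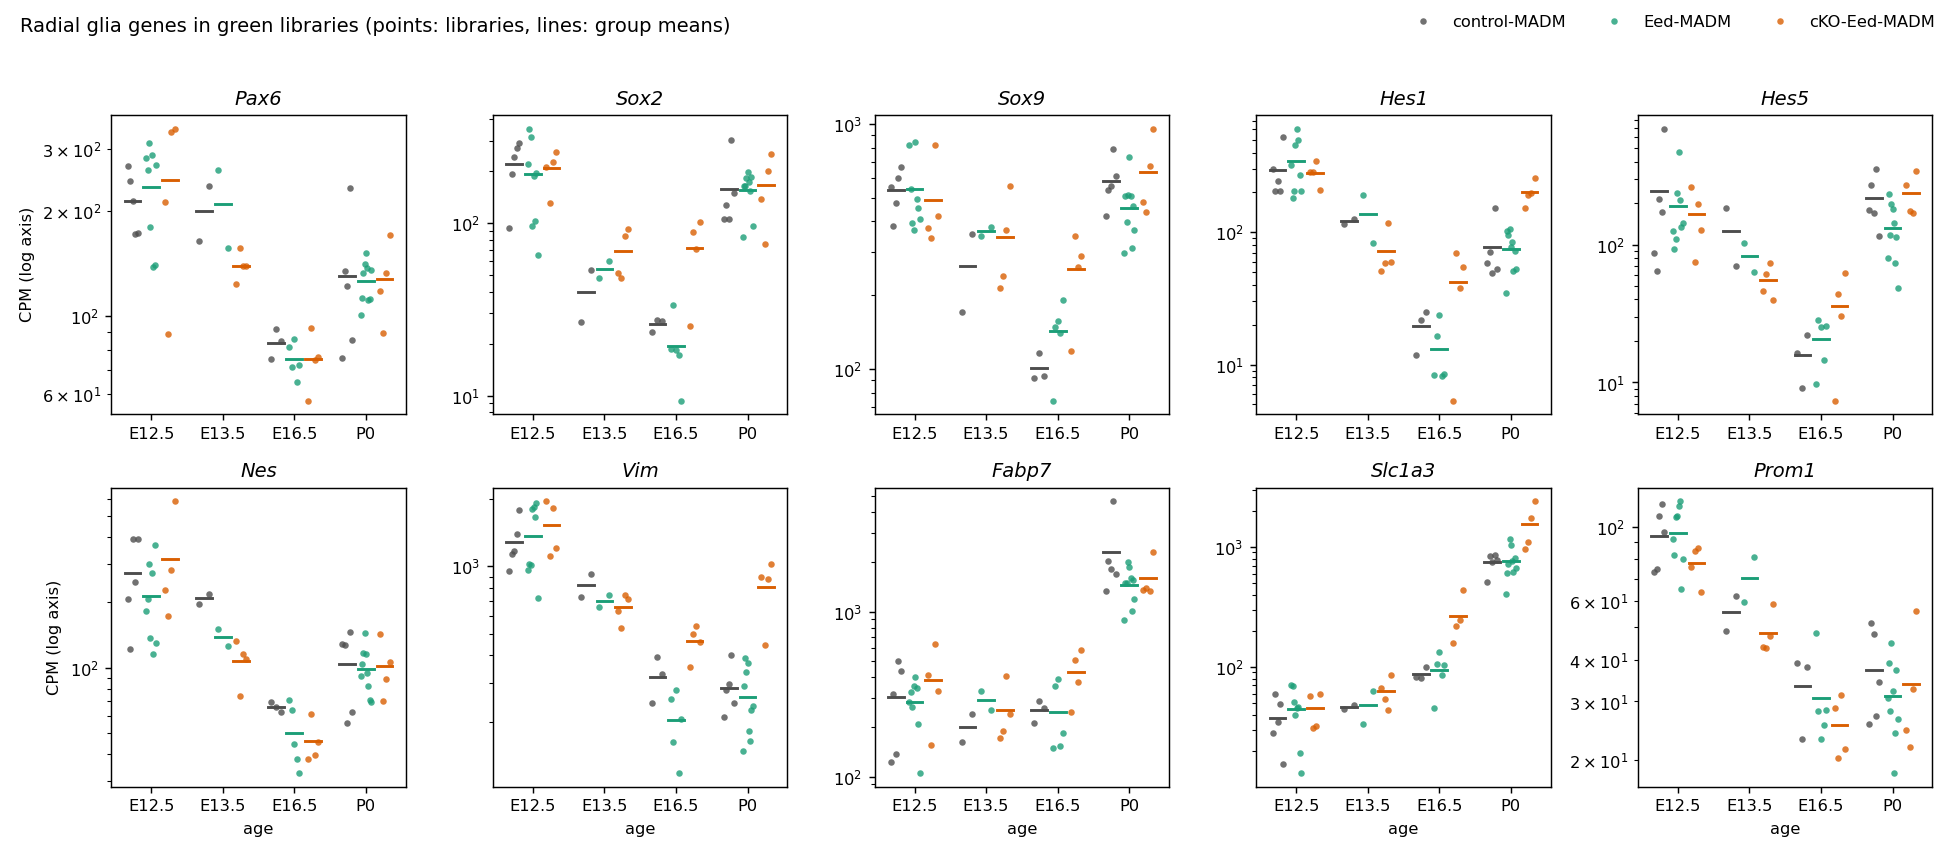
Level of each member by age, as CPM on a log axis; each point is 1 green library, each short line a group mean, and color gives the paradigm. Most members are lowest at E16.5, Slc1a3 and Fabp7 are highest at P0, and the cKO-Eed-MADM libraries at P0 lie above all others of that age for Hes1 and Vim.

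The first comparison asked how the members moved with age where Eed was intact. In control-MADM, 6 of the 10 members fell from E13.5 to E16.5 and none rose (edgeR, adjusted p under 0.05), and 6 rose from E16.5 to P0 and none fell. Over all 13926 genes tested, 15.8% were called between E13.5 and E16.5 and 14.1% between E16.5 and P0. The members' median log2 fold change was -1.32 in the first interval and 2.26 in the second, where the medians over all genes were 0.00 and 0.04. Bulk levels do not tell fewer cells of a type from less RNA per cell.

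The Notch targets had the steepest fall of the 10 between E13.5 and E16.5. Hes5 stood at 183 and 69.6 CPM at E13.5, at 16.4, 9.18 and 22.2 CPM at E16.5, and at 179, 270, 170, 354 and 116 CPM at P0. The 3 libraries of E16.5 lay below all others, while E13.5 and P0 overlapped. It fell by 2.99 ± 0.62 (log2 fold change ± SE; adjusted p = 0.00095) and rose again by 3.76 ± 0.58 (adjusted p = 2.5e-05). Hes1 stood at 116 and 126 CPM at E13.5, at 11.9, 21.7 and 25.2 CPM at E16.5, and at 59.1, 71.4, 49.5, 152 and 52.4 CPM at P0. It fell by 2.65 ± 0.60 (adjusted p = 0.0020) and rose by 1.98 ± 0.52 (adjusted p = 0.0085), and its rise was past the threshold in all but 1 of 13 alternative settings.

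Among the transcription factors, Sox9 stood at 171 and 356 CPM, then at 91.6, 117 and 94.0 CPM, then at 423 to 788 CPM with a median of 557. It fell by 1.40 ± 0.40 (adjusted p = 0.013), a call lost in 3 of 10 alternatives, among them leaving out control-MADM replicate 3 of E13.5 (log2 fold change -0.79, adjusted p = 0.24), and rose by 2.54 ± 0.36 (adjusted p = 4.5e-06). Sox2 stood at 26.5 and 53.2 CPM at E13.5, at 23.4, 27.3 and 27.1 CPM at E16.5, and at 106, 127, 105, 300 and 149 CPM at P0. Its log2 fold change was -0.64 ± 0.49 in the first interval (adjusted p = 0.41), and it rose by 2.60 ± 0.43 in the second (adjusted p = 5.4e-05). Pax6, which is required for cortical neurogenesis, stood at 164 and 235 CPM, then at 75.5, 91.8 and 84.6 CPM. It fell by 1.26 ± 0.29 (adjusted p = 0.0022) and its log2 fold change to P0 was 0.63 ± 0.24 (adjusted p = 0.075).

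Both filament genes fell between E13.5 and E16.5. Vim stood at 730 and 925 CPM at E13.5, at 244, 391 and 328 CPM at E16.5, and at 211, 279, 298, 399 and 245 CPM at P0. It fell by 1.38 ± 0.34 (adjusted p = 0.0041), and its log2 fold change to P0 was -0.17 ± 0.27 (adjusted p = 0.76). Nes stood at 197 and 220 CPM, then at 69.4, 65.6 and 62.5 CPM, and fell by 1.67 ± 0.34 (adjusted p = 0.00061), and its change to P0 was 0.66 ± 0.28 (adjusted p = 0.12).

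The glial genes took another course. Slc1a3 stood at 44.6 and 47.9 CPM at E13.5, at 82.5, 80.4 and 98.9 CPM at E16.5, and at 506, 833, 743, 865 and 780 CPM at P0. Every later library was above every earlier one. Its log2 fold change was 0.90 ± 0.41 in the first interval (adjusted p = 0.13), and it rose by 3.09 ± 0.36 in the second (adjusted p = 1.4e-07). Fabp7 stood at 163 and 238 CPM, then at 211, 288 and 259 CPM, then at 1340, 2030, 1823, 4661 and 1701 CPM, and rose by 3.19 ± 0.41 in the second interval (adjusted p = 1.1e-06). Prom1 passed the test in neither interval, with log2 fold changes of -0.74 ± 0.36 and 0.16 ± 0.29 (adjusted p = 0.17 and 0.80).

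**Figure D2:**
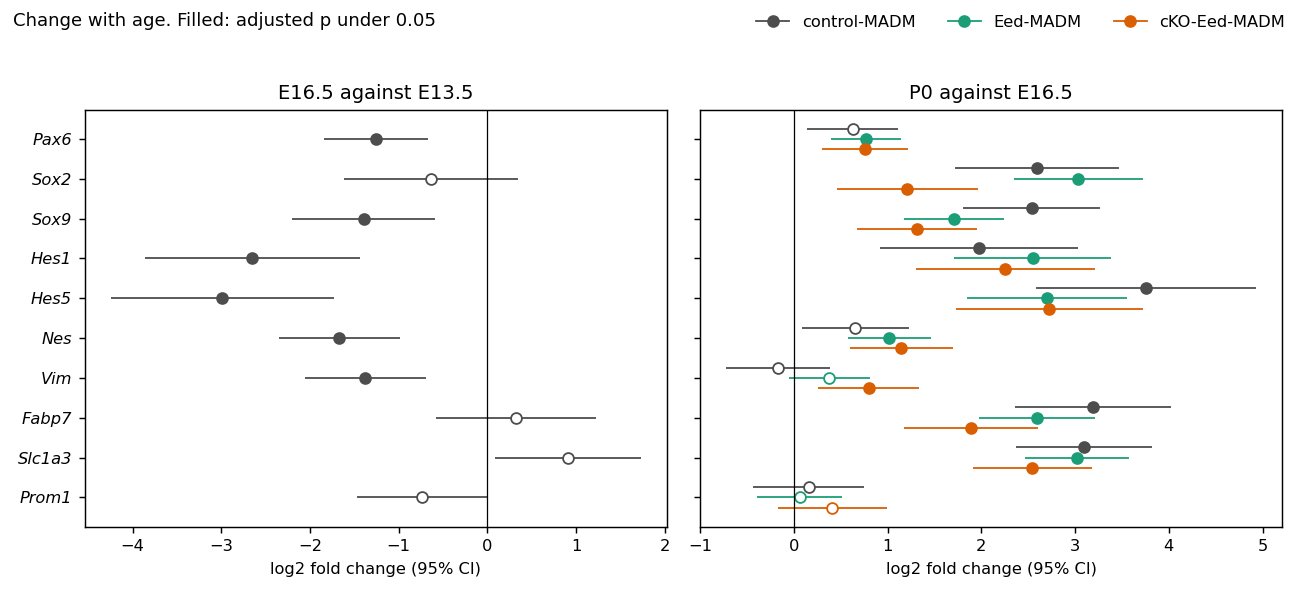
Log2 fold change of each member between ages with its 95% confidence interval, in control-MADM for E16.5 against E13.5 and in the 3 paradigms for P0 against E16.5; filled points have an adjusted p under 0.05 and color gives the paradigm. Hes5, Hes1 and Nes lie furthest left in the first interval, and Slc1a3, Fabp7 and Hes5 furthest right in control-MADM in the second.

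The rise to P0 was also seen where Eed was absent. In Eed-MADM 8 of 10 members rose between E16.5 and P0 and in cKO-Eed-MADM 9 of 10, where 21% and 17.7% of all genes were called. The control-MADM members that rose also passed in both, Pax6 and Nes passed in both, Vim passed in cKO-Eed-MADM, and Prom1 in none. In cKO-Eed-MADM the calls of Vim, Sox2 and Pax6 were lost in 6, 4 and 3 of 13 alternatives. Whether the E16.5 to P0 change differed between paradigms was tested by itself. DESeq2 called 0 of 10 members for cKO-Eed-MADM against control-MADM and 0 for Eed-MADM. EdgeR also called 0 and 0, where it called 1.17% and 0.0215% of all genes. At an unadjusted edgeR p under 0.05 there were 4 and 1 members. For cKO-Eed-MADM against control-MADM these 4 were Sox2, with a difference in log2 fold change of -1.39 (95% confidence interval -2.49 to -0.29, adjusted p = 0.26), Sox9 with -1.22 (-2.14 to -0.31, adjusted p = 0.22), Fabp7 with -1.30 (-2.31 to -0.29, adjusted p = 0.25) and Vim with 0.96 (0.20 to 1.73, adjusted p = 0.26). With no filter on low counts these 4 were called.

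The next comparisons asked what loss of Eed did to the members at each age, first in the whole lineage. Against control-MADM, 0 of 10 members were called in cKO-Eed-MADM at E12.5, where 0% of the 18100 genes tested were, and 0 at E13.5, where 0.0372% of 13448 genes were. DESeq2 also called 0 members at either age, but every share of all genes given in this text is that of edgeR. At E16.5, 3 members rose and 0 fell, and 8.58% of 13359 genes were called. At P0, 3 rose and 0 fell, and 24.2% of 14161 genes were called. So the members' share at P0 was near that of all genes. Slc1a3 rose at both ages, Sox2 and Sox9 at E16.5, and Hes1 and Vim at P0. The members' median log2 fold change was 0.96 at E16.5 and 0.11 at P0, beside 0.00 and -0.01 over all genes.

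Slc1a3 was the member with the lowest adjusted p at E16.5. Its libraries stood at 82.5, 80.4 and 98.9 CPM in control-MADM, at 45.9, 105, 134, 85.0 and 104 CPM in Eed-MADM and at 159, 220, 245 and 441 CPM in cKO-Eed-MADM. All 4 cKO-Eed-MADM libraries lay above all others of that age, and the log2 fold change against control-MADM was 1.64 ± 0.32 (adjusted p = 0.0022). At P0, Slc1a3 read 506, 833, 743, 865 and 780 CPM in control-MADM, 408 to 1157 CPM with a median of 722 in Eed-MADM, and 971, 1094, 1749 and 2397 CPM in cKO-Eed-MADM. Again every cKO-Eed-MADM library was above every control-MADM library, while 2 of the 4 were below the highest Eed-MADM library. The log2 fold change against control-MADM was 1.07 ± 0.26 (adjusted p = 0.0038). Both calls were kept in all 14 and 16 alternatives.

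Vim at P0 read 211, 279, 298, 399 and 245 CPM in control-MADM, 149 to 388 CPM with a median of 237 in Eed-MADM, and 892, 443, 880 and 1022 CPM in cKO-Eed-MADM. The cKO-Eed-MADM libraries did not overlap those of either other paradigm, and the rise was 1.51 ± 0.27 (adjusted p = 0.00030). At E16.5 Vim read 244, 391 and 328 CPM in control-MADM and 356, 500, 541 and 458 CPM in cKO-Eed-MADM, with a log2 fold change of 0.56 ± 0.24 (adjusted p = 0.19). The other filament gene did not share this. Nes at P0 read 55.8 to 146 CPM in control-MADM and 70.5 to 143 CPM in cKO-Eed-MADM, with a log2 fold change of -0.01 ± 0.26 (95% confidence interval -0.55 to 0.54, adjusted p = 0.99). At E16.5 its 4 cKO-Eed-MADM libraries, at 38.1, 61.2, 39.5 and 45.5 CPM, all lay below the lowest control-MADM library at 62.5 CPM, but the change of -0.48 ± 0.26 did not pass the test (adjusted p = 0.32).

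Hes1 at P0 read 59.1, 71.4, 49.5, 152 and 52.4 CPM in control-MADM, 35.0 to 107 CPM with a median of 77.0 in Eed-MADM and 153, 193, 198 and 260 CPM in cKO-Eed-MADM. The lowest cKO-Eed-MADM library was just above the highest control-MADM one, which was replicate 5. The rise was 1.40 ± 0.31 (adjusted p = 0.0021), and it was kept in all 16 alternatives, leaving out that library included. Hes5, the other Notch target, read 179, 270, 170, 354 and 116 CPM in control-MADM and 271, 175, 168 and 340 CPM in cKO-Eed-MADM at P0, the groups overlapping. Its log2 fold change was 0.14 ± 0.38 (95% confidence interval -0.65 to 0.94, adjusted p = 0.82). At E16.5, Hes1 read 11.9, 21.7 and 25.2 CPM in control-MADM and 5.32, 69.7, 37.8 and 54.7 CPM in cKO-Eed-MADM, and Hes5 read 16.4, 9.18 and 22.2 CPM against 7.37, 43.6, 30.3 and 62.6 CPM. For both genes cKO-Eed-MADM replicate 1 was below every control-MADM library and the other 3 above. The log2 fold changes were 1.13 ± 0.58 for Hes1 and 1.20 ± 0.53 for Hes5 (adjusted p = 0.29 and 0.20), and without that library both were called, at 1.50 and 1.54 (adjusted p = 0.033 and 0.025), making 5 members called in place of 3.

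Sox9 at E16.5 read 91.6, 117 and 94.0 CPM in control-MADM, 74.3, 149, 156, 141 and 191 CPM in Eed-MADM, and 118, 350, 261 and 290 CPM in cKO-Eed-MADM. The 4 cKO-Eed-MADM libraries were above the 3 control-MADM libraries, replicate 1 barely so, and the rise of 1.37 ± 0.30 (adjusted p = 0.0063) was kept in all 14 alternatives. Sox2 at E16.5 read 23.4, 27.3 and 27.1 CPM in control-MADM and 25.2, 88.7, 70.6 and 102 CPM in cKO-Eed-MADM, where replicate 1 fell among the control-MADM libraries. Its rise was 1.50 ± 0.41 (adjusted p = 0.027), and leaving out any one of the 3 control-MADM libraries, or any one of cKO-Eed-MADM replicates 2, 3 and 4, put the adjusted p between 0.054 and 0.11. At P0 neither factor was called. Sox2 read 105 to 300 CPM in control-MADM and 75.2 to 249 CPM in cKO-Eed-MADM (log2 fold change 0.09, 95% confidence interval -0.58 to 0.76), and Sox9 read 423 to 788 CPM and 436 to 954 CPM (0.13, -0.36 to 0.62).

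Pax6 was called at neither age. At P0 it read 75.8, 135, 122, 233 and 85.5 CPM in control-MADM and 118, 89.2, 132 and 171 CPM in cKO-Eed-MADM, with a log2 fold change of -0.01 (95% confidence interval -0.50 to 0.47), and at E16.5 of -0.13 (-0.52 to 0.27). Prom1 gave -0.36 (-0.99 to 0.27) at E16.5 and -0.13 (-0.71 to 0.45) at P0. Fabp7 gave 0.79 (0.05 to 1.53, adjusted p = 0.21) at E16.5 and -0.53 (-1.14 to 0.08, adjusted p = 0.21) at P0, where control-MADM replicate 5 read 4661 CPM and no other library of the age over 2291 CPM.

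At E13.5, with 2 control-MADM libraries, the lowest unadjusted p-values were for Nes and Hes5. Nes read 197 and 220 CPM in control-MADM and 132, 73.7, 116 and 110 CPM in cKO-Eed-MADM, which did not overlap, with a log2 fold change of -0.95 ± 0.28 (adjusted p = 0.21). Hes5 read 183 and 69.6 CPM against 46.2, 61.5, 73.3 and 39.6 CPM, with -1.20 ± 0.39 (adjusted p = 0.27), and was called without control-MADM replicate 3 (-1.76, adjusted p = 0.028) but not without replicate 1 (-0.30, adjusted p = 1.0). Pax6 read 164 and 235 CPM against 124, 156, 139 and 139 CPM, also without overlap. The 2 Eed-MADM libraries, at 125 and 151 CPM of Nes, were below both control-MADM libraries too. The share of all genes whose groups separate in this way was not counted. The 95% confidence interval was -0.86 to 0.21 for Vim and -1.12 to 0.11 for Pax6. At E12.5 the members' log2 fold changes lay between -0.58 for Hes5 and 0.34 for Fabp7, with no unadjusted p under 0.05.

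**Figure D3:**
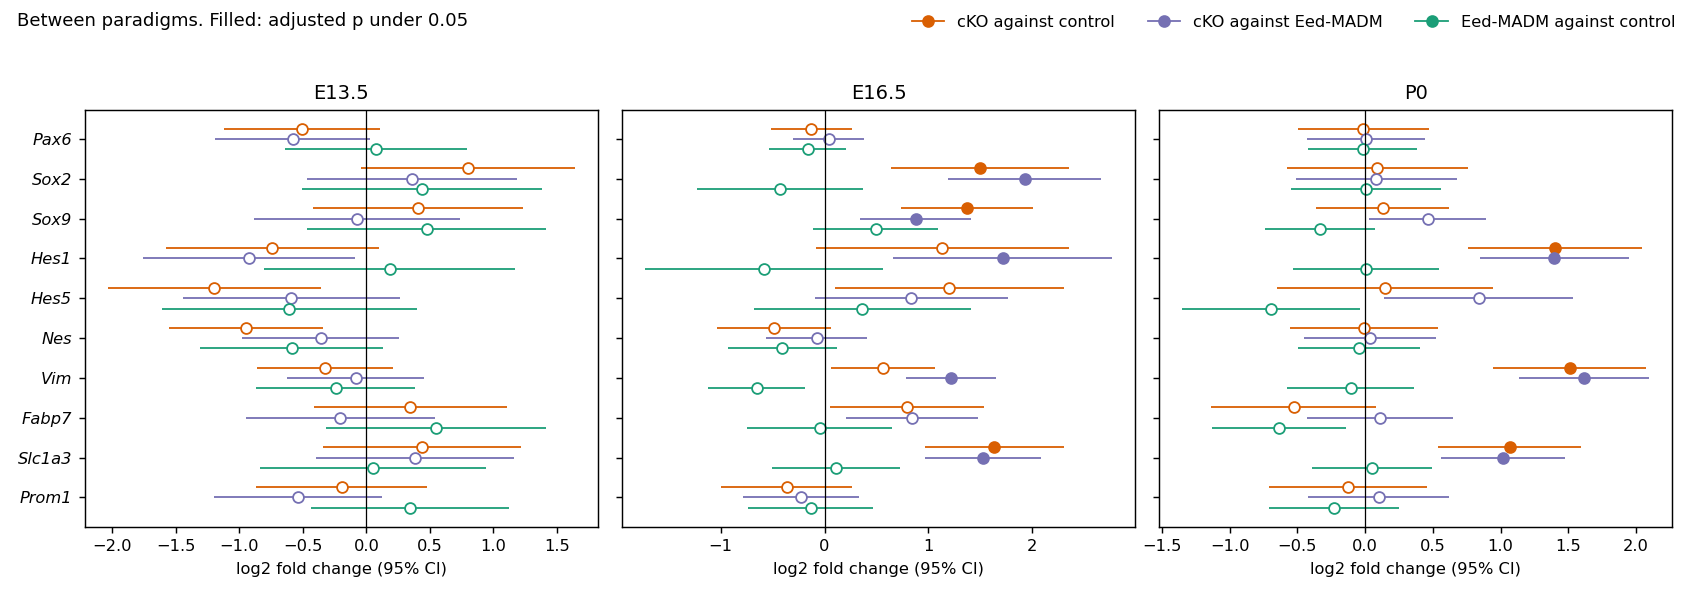
Log2 fold change of each member between paradigms with its 95% confidence interval at E13.5, E16.5 and P0; color gives the comparison and filled points have an adjusted p under 0.05. Filled points are of cKO-Eed-MADM only, for Sox2, Sox9, Hes1, Vim and Slc1a3 at E16.5 and for Hes1, Vim and Slc1a3 at P0.

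Where the Eed-/- cells were sparse, no member was called against control-MADM at any age. In Eed-MADM, 0 of 10 members were called at each age, by DESeq2 and by edgeR. Of all genes, edgeR called 0% at E12.5 and 0% at E13.5, but 0.255% at E16.5 and 1.75% at P0. An unadjusted p under 0.05 was found for 0, 0, 1 and 2 members. These were Vim at E16.5, which read 244 to 391 CPM in control-MADM and 119 to 281 CPM in Eed-MADM (-0.65 ± 0.22, adjusted p = 0.27), and Fabp7 (-0.64 ± 0.24, adjusted p = 0.17) and Hes5 (-0.69 ± 0.31, adjusted p = 0.26) at P0. At E13.5, with 2 libraries per group, Eed-MADM lay wholly below control-MADM for Nes. For Fabp7 it lay wholly above, at 254 and 331 CPM against 163 and 238 CPM. How many of all genes separate so between 2 and 2 libraries was not counted. For the 3 members that rose in cKO-Eed-MADM at P0 the log2 fold changes of Eed-MADM were 0.00 for Hes1 (95% confidence interval -0.53 to 0.54), -0.11 for Vim (-0.57 to 0.36) and 0.05 for Slc1a3 (-0.40 to 0.49).

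Green cells of both mutant paradigms lack Eed, so cKO-Eed-MADM was also compared with Eed-MADM directly. This comparison shares its cKO-Eed-MADM libraries with the one above. It gave 0 called members at E12.5 and 0 at E13.5, by DESeq2 and by edgeR. EdgeR called 0% and 0.0223% of all genes, with 0 and 1 members at an unadjusted p under 0.05. At E16.5, 5 rose and 0 fell, where 7.04% of genes were called, and at P0, 3 rose and 0 fell, where 19.5% were. At E16.5 these were Sox2 (1.93 ± 0.35, adjusted p = 0.0013), Vim (1.21 ± 0.21, adjusted p = 0.00068), Slc1a3 (1.52 ± 0.27, adjusted p = 0.00087), Hes1 (1.71 ± 0.50, adjusted p = 0.044) and Sox9 (0.88 ± 0.26, adjusted p = 0.043). The calls of Hes1 and Sox9 were lost in 10 of 16 alternatives each. Without Eed-MADM replicate 4, the library with the high choroid plexus markers, 3 members were called, and 3 also without Eed-MADM replicate 1 or 2 or any one of cKO-Eed-MADM replicates 2, 3 and 4. At P0 the rises were 1.62 ± 0.23 for Vim (adjusted p = 3.2e-05), 1.40 ± 0.27 for Hes1 (adjusted p = 0.00068) and 1.02 ± 0.22 for Slc1a3 (adjusted p = 0.0021), each kept in all 11 alternatives. None of these alternatives left out an Eed-MADM library. At E12.5, 0 members were called against control-MADM without cKO-Eed-MADM replicate 3 or without Eed-MADM replicate 8.

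Other genes known from radial glia, 20 in number, were counted beside the members in cKO-Eed-MADM against control-MADM. At E16.5, 19 were tested, of which 4 rose and 1 fell, and at P0, 3 of 20 rose and 2 fell, where 8.58% and 24.2% of all genes were called. The share at P0 was near that of all genes. Lhx2, a cortical selector gene, fell at both ages, by 1.24 ± 0.17 and 1.85 ± 0.15 (adjusted p = 8.8e-05 and 5.4e-09). At E16.5 the extracellular matrix gene Tnc rose by 1.99 ± 0.48 (adjusted p = 0.014), Ttyh1 by 0.88 ± 0.22 (adjusted p = 0.015) and Psat1, of serine synthesis, by 0.73 ± 0.21 (adjusted p = 0.038). At P0, Hopx, a gene of outer radial glia, rose from 4.09 ± 1.33 to 32.2 ± 10.1 CPM (SD, n = 5 and 4), a log2 fold change of 2.97 ± 0.48 (adjusted p = 6.1e-05). Ttyh1 rose by 1.36 ± 0.27 (adjusted p = 0.00078), Zfp36l1 by 0.79 ± 0.25 (adjusted p = 0.024), and Mt3 fell by 0.90 ± 0.32 (adjusted p = 0.043). The list's median log2 fold change was 0.38 at E16.5 and 0.18 at P0, beside 0.00 and -0.01 over all genes.

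Of 23 further Notch pathway genes, 21 were tested at E16.5, where 2 rose and 2 fell, and 23 at P0, where 6 rose and 2 fell, beside the same 8.58% and 24.2% of all genes. Dll3, of the ligand family, rose by 0.73 ± 0.17 and the receptor Notch2 by 1.22 ± 0.35 at E16.5 (adjusted p = 0.011 and 0.035), while Hes6, which opposes Hes1, fell by 0.87 ± 0.14 and the glycosyltransferase Mfng by 0.86 ± 0.24 (adjusted p = 0.00042 and 0.033). At P0 the target Hey1 rose by 1.70 ± 0.30 (adjusted p = 0.00018), the ligand Dll4 by 2.03 ± 0.40 (adjusted p = 0.00053) and the receptor Notch3 by 1.64 ± 0.39 (adjusted p = 0.0030), while Hes6 fell by 0.50 ± 0.15 and Mfng by 0.90 ± 0.28 (adjusted p = 0.019 and 0.023). Dll4, Notch3, Hey1, Hey2 and Heyl are also genes of blood vessels. The median log2 fold change of the list was 0.08 and 0.27.

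Markers of other cells moved in the same libraries. Of the astrocyte list, which holds Gfap, Aqp4 and Slc1a2, 5 of 9 tested genes rose in cKO-Eed-MADM against control-MADM at E16.5 and 9 of 10 at P0, and none fell. Its summed level was 148 to 173 CPM in control-MADM and 337 to 1173 CPM in cKO-Eed-MADM at E16.5, and 1091 to 3300 against 5491 to 11330 CPM at P0. At P0 Gfap, the astrocyte filament, rose by 3.25 and Slc1a2, the other astrocyte glutamate transporter, by 2.77 (adjusted p = 6.9e-06 and 6.7e-07). At P0, microglia markers summed to 5.93 to 11.1 CPM in control-MADM, 0.999 to 74.9 CPM in Eed-MADM and 70.0 to 178 CPM in cKO-Eed-MADM. Of these, 3 of 3 tested rose in cKO-Eed-MADM against control-MADM. Meningeal and mural markers summed to 17.1 to 58.0 CPM in control-MADM and 94.3 to 249 CPM in cKO-Eed-MADM, and 4 of 5 tested rose. Genes this low in control-MADM may have reached the count filter through the other libraries, so these shares may be raised by the filter. At E16.5 the microglia sums were 0.43 to 1.28 CPM in control-MADM, 0.36 to 15.3 CPM in Eed-MADM and 5.81 to 31.2 CPM in cKO-Eed-MADM. Csf1r then had no read in control-MADM. Vim is also made by microglia, meningeal and vascular cells. Mitotic genes of dividing cells fell for 8 of 10 at P0, with sums of 306 to 468 CPM in control-MADM and 115 to 171 CPM in cKO-Eed-MADM, and for 0 of 10 at E16.5. Their E16.5 sums were 182 to 189 CPM in control-MADM, 62.3 to 162 CPM in Eed-MADM and 63.9 to 136 CPM in cKO-Eed-MADM. At P0 the Eed-MADM sums, 175.5 to 465 CPM, overlapped those of control-MADM. Interneuron genes rose for 5 of 6 at E16.5, from 12.6 to 34.1 CPM in sum to 245 to 497 CPM, and fell for 4 of 6 at P0. The filter may have raised the E16.5 shares of interneuron and astrocyte genes too, through the cKO-Eed-MADM libraries. Whether the reads of these markers came from such cells was not tested, nor was the part of such cells in the levels of the members.

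**Figure D4:**
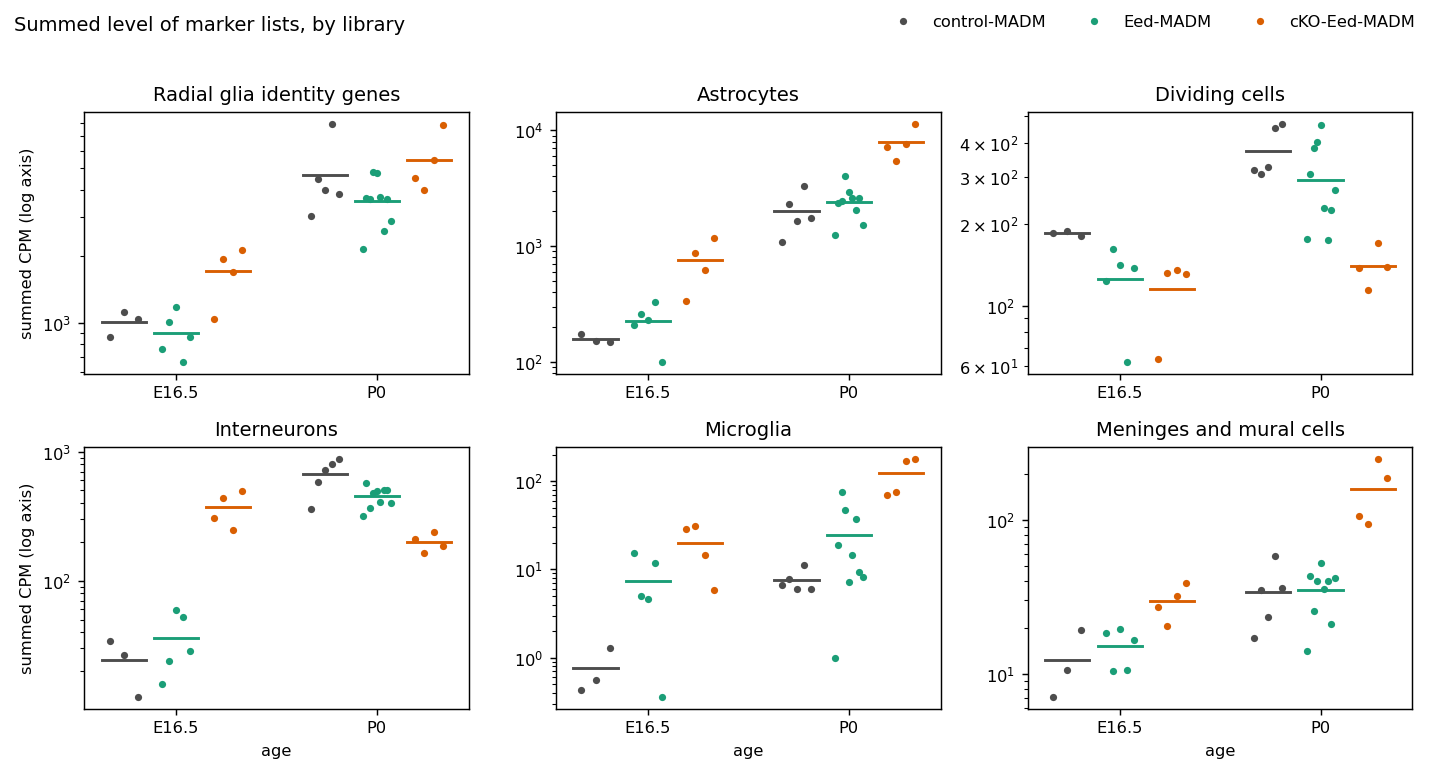
Summed CPM of the radial glia members and of 5 other marker lists in every green library at E16.5 and P0, on log axes; points are libraries, short lines group means and color the paradigm. The cKO-Eed-MADM libraries lie above all control-MADM libraries for astrocyte, microglia and meningeal markers at both ages and below them for dividing cells. For dividing cells the Eed-MADM libraries also lie below all control-MADM libraries at E16.5, but overlap them at P0.

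The series title calls the cells neurons, and in control-MADM the 10 projection neuron markers summed to 10770 ± 554.5 CPM at E16.5 and 6499 ± 1419 CPM at P0 (SD, n = 3 and 5), where the 10 members summed to 1006 ± 128 and 4651 ± 1899 CPM. At P0 these ranges overlapped, and in control-MADM replicate 5 the members summed to 7926 CPM and the neuron markers to 4650.0 CPM. The identity of the tissue was checked by Emx1, a transcription factor of the dorsal telencephalon. It had reads in all groups at E16.5 and P0, and it fell in cKO-Eed-MADM by 1.69 ± 0.18 at E16.5 and by 1.40 ± 0.22 at P0 (adjusted p = 7.9e-06 and 5.2e-05), with 20.7 ± 6.20 CPM against 55.7 ± 13.1 CPM at P0 (SD, n = 4 and 5). Intermediate progenitor genes fell for 2 of 10 at E16.5 (Eomes by 2.11 and Neurog2 by 2.66) and for 5 of 9 at P0, where 3 others rose. Projection neuron genes fell for 3 of 10 and 6 of 10, and oligodendrocyte precursor genes rose for 2 of 5 at E16.5 and for 0 of 5 at P0. The precursor genes summed to 9.38 to 16.2 CPM in control-MADM at E16.5, so the filter may have raised that share. Only 1 of 5 endothelial genes reached the filter at P0, Cldn5, and it was not called. The 5 endothelial genes summed to 2.30 to 13.3 CPM in control-MADM and 9.73 to 39.5 CPM in cKO-Eed-MADM at P0. Of choroid plexus and ependyma genes 3 of 5 were tested at E16.5 and 2 of 5 at P0, with 0 called.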

How the data were processed

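Green, red and yellow cells were sorted from the neocortex of mice of the 3 MADM paradigms and sequenced by Smart-Seq2. The deposited counts were made by the authors with STAR in its gene count mode against mm10 (GRCm38), leaving out reads that align to several places, and hold whole reads per gene, unstranded and for each strand. For the annotation release: not given in the sources used here. Symbols came from GENCODE M21, which matched 53274 of 53379 identifiers. Of uniquely aligned reads, 13.4% to 40.1% fell in no gene or in several and were left out.

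The unstranded counts of the 55 green libraries used were tested with edgeR 4.0.16 (quasi-likelihood F-test, robust, TMM scaling, R 4.3.3), in 1 fit per age over the 3 paradigms and in 1 fit over E13.5, E16.5 and P0 for ages. Tests took genes whose count averaged above 1 at E12.5 and above 10 at later ages, and p-values were adjusted by Benjamini-Hochberg over all of them, with a threshold of 0.05. Printed CPM share one TMM scaling over the 55 libraries. Samples were grouped by the labels for genotype, color and age. Alternatives were DESeq2 1.42.0, its size factors in edgeR, no filter, all green libraries, a fit of only 2 groups, a replicate block and leaving out single libraries. Single libraries were left out in turn only from groups of at most 5, so not from Eed-MADM at E12.5 or P0. Chosen after seeing the data were both strand columns summed and leaving out Eed-MADM replicate 8 at E12.5. The fits were tested on simulated data. The text names all 10 members, up to 3 genes of lowest adjusted p per direction from each other list, and the 5 genes most like the members. The members and lists were chosen with earlier results of these data known. No 2 libraries of a group were identical. Red and yellow libraries entered no test.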

Additional observations from a re-analysis of the deposited data

Results flagged for a closer look

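Within groups of 4 to 10 libraries, 1 library stood far from the others by Dixon's test in 9 of the 90 sets of member values tested, where chance flags about 1 in 20. Control-MADM replicate 5 at P0 accounted for 3, with 300.2 CPM of Sox2 (next highest 148.9), 151.5 CPM of Hes1 (71.4) and 4661 CPM of Fabp7 (2030.0). At E12.5, Hes5 read 690.2 CPM in control-MADM replicate 5 (next 212.6) and 466.2 CPM in Eed-MADM replicate 6 (236.6). Hes1 read 118.5 CPM in cKO-Eed-MADM replicate 3 at E13.5 (59.3). Sox9 read 735.9 CPM in Eed-MADM replicate 5 at P0 (514.2), Fabp7 2291 CPM in cKO-Eed-MADM replicate 4 at P0 (1394), and Prom1 48.26 CPM in Eed-MADM replicate 1 at E16.5 (28.35). All 9 were the highest of their group.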

How the results depend on the processing

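No alternative turned the direction of a called member. The share of all genes called under each alternative is not given here. A change in the counts below therefore cannot be told from a change in how many genes the setting called. With no filter on low counts, 7 members in place of 3 were called in cKO-Eed-MADM against control-MADM at E16.5, 1 in place of 0 in Eed-MADM against control-MADM at E16.5, and 4 in place of 0 for the E16.5 to P0 change in cKO-Eed-MADM against that in control-MADM; the cause was not tested. For cKO-Eed-MADM against Eed-MADM at E16.5, 3 in place of 5 were called with both strand columns summed and with only the 2 groups compared, and the count lay between 3 and 6 when single libraries were left out. Leaving out single libraries gave 2 to 5 members for cKO-Eed-MADM against control-MADM at E16.5 and 0 to 1 at E13.5. With all green libraries, shallow ones included, 4 in place of 9 members were called for P0 against E16.5 in cKO-Eed-MADM, and 3 in place of 6 for E16.5 against E13.5 in control-MADM. With the replicate number as a block, 3, 0 and 4 members were called at E16.5 and 3, 0 and 4 at P0 (cKO-Eed-MADM against control-MADM, Eed-MADM against control-MADM, cKO-Eed-MADM against Eed-MADM), and 0 in each at E12.5 and E13.5. Libraries of the same number shared only a number, the deviations of such pairs correlating from -0.289 to 0.208 (E12.5), -0.084 to -0.039 (E13.5), -0.131 to 0.233 (E16.5) and -0.194 to 0.478 (P0). The counts of 0 at E12.5 and E13.5 do not show that members did not differ: the median biological coefficient of variation was 0.63 at E12.5 and 0.37 at E13.5, against 0.28 at E16.5 and 0.27 at P0, and E13.5 had 2 libraries in each of 2 groups.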

Other observations

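Of the red and yellow libraries of P0, all but 1 yellow cKO-Eed-MADM library passed the same read limits, with at most 2 per group and color, and they entered no comparison. On a CPM scaling over these and the green libraries together, Vim in cKO-Eed-MADM read 680.4 CPM in the 1 yellow library and 226.3 and 585.1 CPM in the 2 red ones, where the 4 green libraries had a median of 909.8 CPM. In control-MADM, Vim read 32.25 and 166.3 CPM in yellow and 219.3 and 248.8 CPM in red cells. Slc1a3, the GLAST gene, read 1112 CPM in yellow and 570.0 and 1376 CPM in red cells of cKO-Eed-MADM, and 206.8 and 453.4 CPM in yellow and 425.1 and 553.6 CPM in red cells of control-MADM. Hes1 read 117.0 CPM in yellow and 26.85 and 295.6 CPM in red cells of cKO-Eed-MADM, and 15.88 and 107.6 CPM in yellow and 44.42 and 98.47 CPM in red cells of control-MADM.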
